A study of Mus musculus with 12 samples.

Results

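The genes described here encode 3 families of proteins that bind pre-mRNA and build the spliceosome: the heterogeneous nuclear ribonucleoproteins (hnRNP), the serine and arginine rich splicing factors (SR) and the proteins of the small nuclear ribonucleoproteins (snRNP). They were chosen by symbol (beginning with Hnrnp, with Srsf and a digit, or with Snrp) and by level (at least 1 FPKM, the number of fragments per kilobase of transcript scaled to the size of the library, in 2 or more libraries). Of 43 matching symbols, 41 reached that level, among 11069 such genes of 24325 listed. All 20 hnRNP symbols, 10 of 11 SR symbols and 11 of 12 snRNP symbols were kept. Since measured values took part in the choice, the levels of the members are given as a description. Nearest the threshold on the inside was Hnrnpll, with less than 1 FPKM in 1 library of ko and 1 library of wt activated B cells but 1.40 and 1.01 FPKM in the others of those groups. On the outside were Srsf12, with at most 0.196 FPKM in any library, and Snrpn, listed at 0 in all libraries but 1. The other 40 members were at or above 1 FPKM in all 12 libraries, and the lowest mean among them was 9.04 FPKM (Hnrnpr).

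Splenic B cells of C57BL/6 mice, enriched with anti-B220 beads, were stimulated for 4 days with 25 µg/ml lipopolysaccharide (LPS), a bacterial cell wall component that drives B cells into division and antibody secretion. All mice, controls included, carried Prdm1 +/gfp, a green fluorescent protein (GFP) reporter in 1 copy of the gene for Blimp1, the regulator of plasma cell fate. They were either Mzb1-/- (ko), without the endoplasmic reticulum protein Mzb1, or Mzb1+/+ (wt). By CD138, a plasma cell surface proteoglycan, and the reporter, cells were sorted into activated B cells (ActB, negative for both), pre-plasmablasts (PrePB, reporter only) and plasmablasts (PB, both), and polyadenylated RNA was sequenced. The 6 groups (ko and wt ActB, ko and wt PrePB, ko and wt PB) held 2 libraries each. The labels do not say whether the libraries of a group came from separate animals. Sex transcripts (below) place the 2 wt libraries of each group in animals of different sex. The p-values measure the spread between these libraries, which may be technical in the ko groups.

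Introns are removed by the spliceosome, whose U1 and U2 snRNPs recognise the start of an intron and its branch point. Most of its snRNPs, U1 and U2 included, rest on a ring of Sm proteins around the small nuclear RNA. SR proteins bind exons and mostly favour their inclusion, while hnRNP proteins coat the transcript and often favour skipping. In B cells the choice between splicing to the membrane exons and cleavage at the secretory polyadenylation site of the immunoglobulin heavy chain transcript decides whether the antibody stays in the membrane or is secreted. The values here are sums per gene, so they give the amount of mRNA for splicing proteins and say nothing about splicing itself.

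Promoter sequences are shown for a pair of members with higher and a pair with lower levels in plasmablasts, as examples of the DNA before their starts. Of the higher pair, Snrpd2 was called in wt cells only. RefSeq (GRCm38.p6) gave the 250 bases before the start for 37 of the 41 members. The higher pair is Srsf9 (plus strand, chr5:115326927-115327176) and Snrpd2 (plus strand, chr7:19149588-19149837). The lower pair is Srsf3 (plus strand, chr17:29032410-29032659) and Hnrnpl (plus strand, chr7:28810640-28810889). Capitals mark a CCAAT box (CCAAT) or a GC box (GGGCGG), each read on both strands, and neither motif overlaps the other in these windows.
Srsf9: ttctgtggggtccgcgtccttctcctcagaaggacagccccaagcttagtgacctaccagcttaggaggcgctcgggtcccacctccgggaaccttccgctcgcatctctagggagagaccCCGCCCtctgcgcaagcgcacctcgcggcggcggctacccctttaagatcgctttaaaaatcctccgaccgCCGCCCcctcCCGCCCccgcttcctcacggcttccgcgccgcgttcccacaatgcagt
Snrpd2: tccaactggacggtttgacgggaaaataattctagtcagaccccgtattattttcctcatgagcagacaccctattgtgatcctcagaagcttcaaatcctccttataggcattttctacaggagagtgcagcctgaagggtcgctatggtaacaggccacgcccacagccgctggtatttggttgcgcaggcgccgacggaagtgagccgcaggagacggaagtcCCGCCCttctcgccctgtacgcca
Srsf3: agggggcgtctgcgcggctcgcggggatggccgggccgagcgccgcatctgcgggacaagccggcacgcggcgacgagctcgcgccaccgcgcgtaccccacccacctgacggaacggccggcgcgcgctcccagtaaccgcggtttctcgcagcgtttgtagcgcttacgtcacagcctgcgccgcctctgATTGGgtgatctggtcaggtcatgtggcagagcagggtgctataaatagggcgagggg
Hnrnpl: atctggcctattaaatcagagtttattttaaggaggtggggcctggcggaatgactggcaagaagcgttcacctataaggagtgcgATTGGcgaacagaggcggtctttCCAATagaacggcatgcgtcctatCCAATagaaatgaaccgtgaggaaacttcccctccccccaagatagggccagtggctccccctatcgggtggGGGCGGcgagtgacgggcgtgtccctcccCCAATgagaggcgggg
The windows of Srsf9 and Snrpd2 held 3 and 1 GC boxes and no CCAAT box, that of Srsf3 held 1 CCAAT box and no GC box, and that of Hnrnpl held 4 CCAAT boxes and 1 GC box. The printed windows do not stand for all lower members: Snrpb2, Srsf1 and Hnrnpm, lower in PB in both genotypes, had no CCAAT box. Among all members, a CCAAT box lay in 19 of 37 (51.4%), against 41.2% of the 8459 tested genes with a window. By family these were 13 of 18 hnRNP genes (72.2%), 3 of 10 SR genes (30.0%) and 3 of 9 snRNP genes (33.3%). A GC box lay in 75.7% of members and 64.7% of tested genes, the ETS motif CCGGAAG in 24.3% and 17.3%, the E-box CACGTG in 10.8% and 10.3%, the NRF1 motif in 2.7% and 2.08% and the YY1 motif AAGATGGC in 2.7% and 2.66%. The letters AGNGAAAG, a motif bound by Blimp1, were in 0 of 37 member windows and in 7.73% of tested genes. Members had 50 windows over 37 genes and tested genes 10740 over 8459, because some genes have several starts. These matches are letters in a window and were not tested as binding sites.

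The libraries held 418966 to 581262 FPKM in total, and absolute sequencing depth is unknown because no counts were used. Mzb1 had 273 and 289 FPKM in ko ActB, 899 and 871 in ko PrePB and 1008 and 926 in ko PB, against 845 and 1016 in wt ActB, 10066 and 9926 in wt PrePB and 15434 and 17359 in wt PB, so the genotype labels fit the values. Low values followed one pattern, called A here, in 8 libraries (all wt libraries and replicate 1 of ko ActB and ko PrePB) and another, B, in 4 (replicate 2 of these ko groups and both ko PB libraries). In PB the pattern and the genotype cannot be told apart. Steps in the low values of pattern A gave depths relative to replicate 1 of wt PB of 1.59 to 1.83 in 3 ActB libraries, 1.20 to 1.56 in 3 PrePB libraries and 0.928 in replicate 2 of wt PB, so depth moved with the population, and its part in the results was not tested. Replicate 1 of each wt group also differed from the other 9 libraries in the female transcript Xist (33.3 to 81.4 FPKM there, at most 0.389 elsewhere). The Y-linked transcript Ddx3y was at most 0.0479 FPKM there and at least 15.7 in the other 9 libraries. By these transcripts replicate 1 of each wt group was female, and all other libraries, every ko library included, were male. Sex and genotype are thus partly confounded, and in wt cells sex goes with the replicate number. Small RNA genes took 0.982% to 14.2% of the FPKM.

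Most splicing protein genes had lower mRNA levels in plasmablasts than in activated B cells, in both genotypes and in all 3 families. In ko cells 32 of 41 members were lower and 2 higher, and in wt cells 32 were lower and 3 higher (limma-trend on log2(FPKM + 1) over all tested genes, two-sided, Benjamini-Hochberg adjusted p below 0.05). Of all genes tested, 62.2% were called in ko cells (30.9% lower, 31.2% higher) and 62.0% in wt cells (31.0% lower, 31.0% higher). With libraries scaled to equal totals, 37 members were lower and 1 higher in each genotype, beside 46.1% of all genes lower and 22.1% higher in ko and 52.2% lower and 19.4% higher in wt cells. With the deposited scaling the median log2 change of the members was -0.51 in ko and -0.50 in wt cells, against -0.008 and -0.01 for all genes tested. Without replicate 1 in all wt groups, which left 1 library in each, the wt median was -0.47, against -0.008 for all genes tested. Between ActB and PB 31 members were lower in both genotypes, 2 were higher in both and none was called in opposite directions. With the deposited scaling, neither genotype gave a call for Hnrnph2, Hnrnpul1, Srsf5, Srsf6 or Snrpc. The wt calls of Hnrnpa1, Srsf4, Srsf10, Snrpa1, Snrpb, Snrpd2, Snrpd3 and Snrpf and the ko call of Snrpb were lost without 1 or another library of the compared groups. Without replicate 1 in all wt groups, further wt calls were lost, those of Hnrnpa3, Hnrnpk, Hnrnpl, Hnrnpr and Srsf2.

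**Figure D1:**
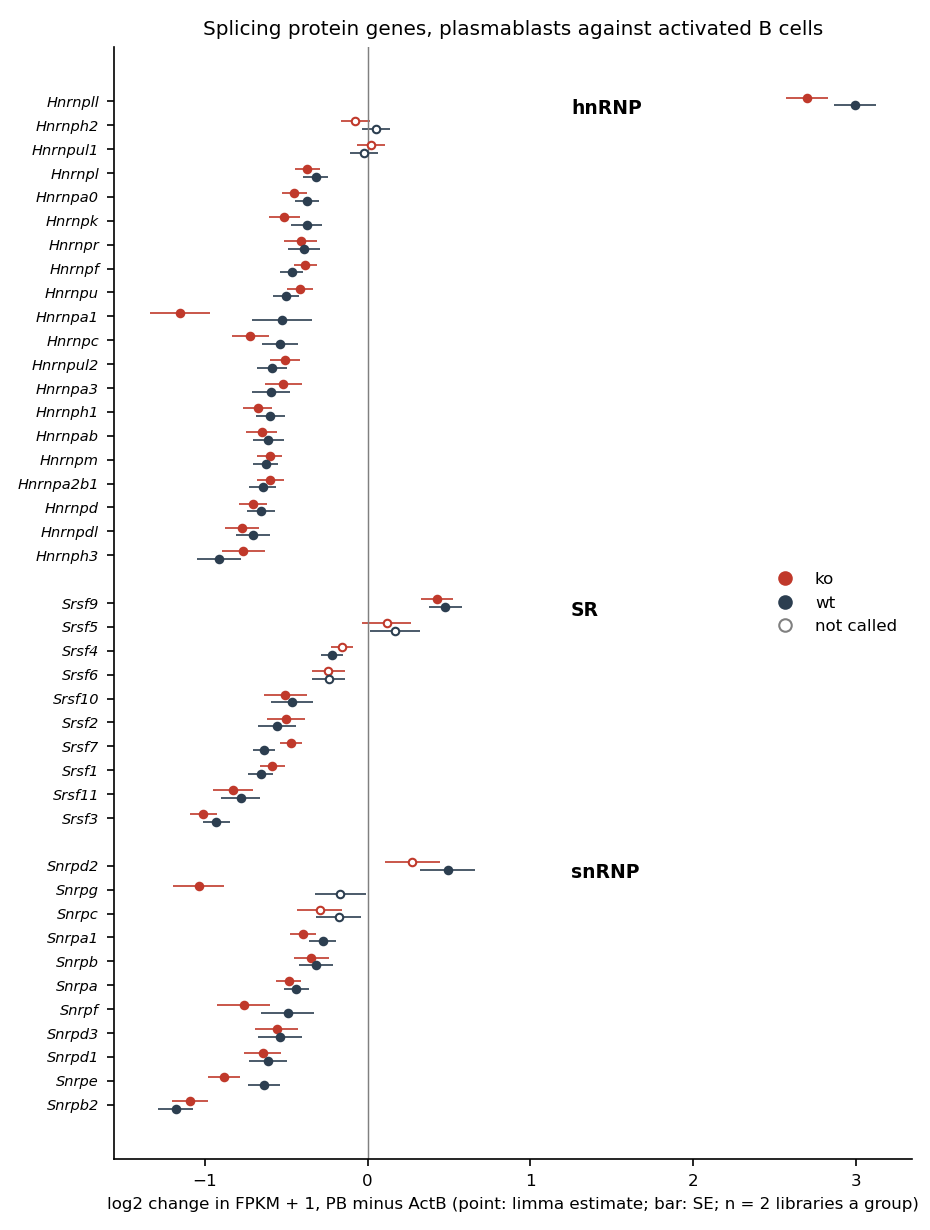
Log2 change of each of the 41 genes in PB minus ActB (x axis, log2 of FPKM + 1), by family, for ko (red) and wt (dark). Points are limma estimates, bars are standard errors (2 libraries a group) and open points were not called. Nearly all points lie left of 0. Hnrnpll stands far to the right at 2.70 in ko and 2.99 in wt, and Srsf9 and Snrpd2 are the next highest.

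As a sum over the family, hnRNP genes had 2693 and 2508 FPKM in ko ActB, 2059.6 and 2043 in ko PrePB and 1812 and 1885 in ko PB. The wt sums were 2855 and 2824 in ActB, 2307 and 2251 in PrePB and 2025 and 2018 in PB. The libraries of the 3 populations did not overlap within a genotype, and most of the difference lay between ActB and PrePB. SR genes summed to 930.4 and 978 FPKM in ko ActB, 850.3 and 849.6 in ko PrePB and 767 and 784 in ko PB, and to 1036 and 979.7, 896 and 849.9, and 807 and 807 in the same wt populations. The snRNP sums of PB and PrePB overlapped in both genotypes, at 799 and 828 FPKM in ko PB against 784 and 934 in ko PrePB, and 1014 and 894 FPKM in wt PB against 1093 and 945 in wt PrePB. All members together took 0.640% and 0.618% of the FPKM in ko PB and 1.08% and 0.985% in ko ActB, and 0.676% and 0.640% in wt PB and 1.20% and 1.10% in wt ActB. FPKM is a relative measure, and the library scaling of the deposited values is not given. Their medians over tested genes were alike (13.1 to 13.7 FPKM), while their totals were not. Fewer molecules per cell and more RNA of other genes cannot be told apart here, nor can fewer cells of a kind and less RNA per cell.

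**Figure D2:**
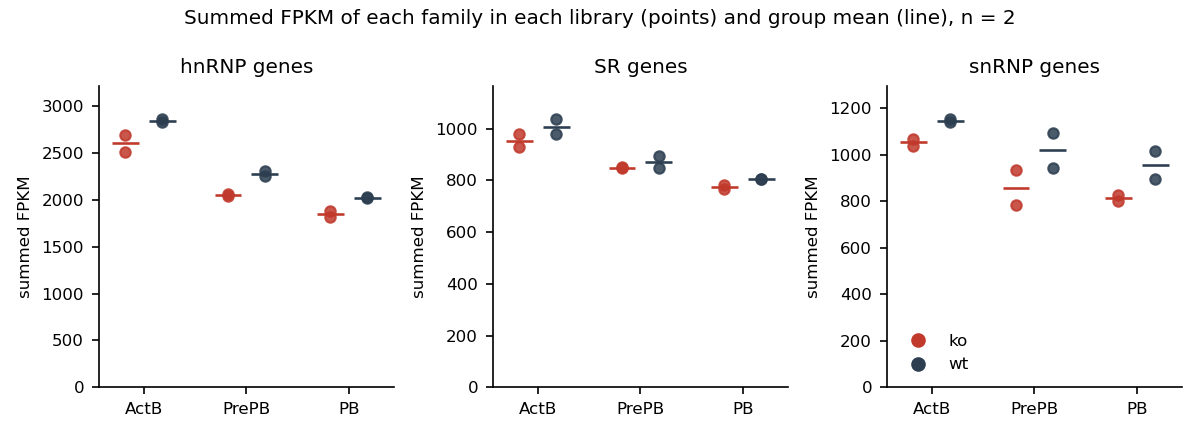
Summed FPKM of the 20 hnRNP, 10 SR and 11 snRNP genes (y axis, from 0) in each library (points) with the group mean (line, n = 2), for ko (red, left) and wt (dark, right) in the 3 populations. The hnRNP and SR sums step down with each population, while the snRNP points of PrePB and PB overlap.

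Most members changed by less than 1 log2 unit. Of the members, 56.1% had a log2 change of -0.5 or less in ko cells and 51.2% in wt cells, against 22.2% and 22.9% of all genes tested. A log2 change of -1 or less was found in 9.76% of members in ko and 2.44% in wt cells, and in 8.99% and 9.19% of all genes. Requiring a log2 change of at least 0.5 besides the adjusted p left 1 higher and 21 lower members in wt cells.

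**Figure D3:**
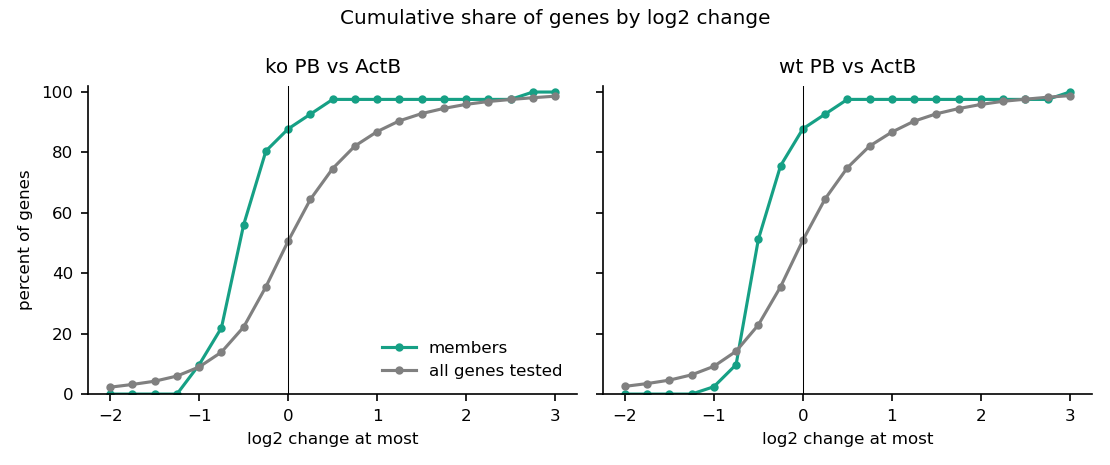
Cumulative percent of genes (y axis) with a log2 change at or below the value on the x axis, in ko (left) and wt (right) PB against ActB, for the 41 members (green) and all 11069 genes tested (grey). The members' curve lies above the other between -0.5 and 0.5 and is close to it or below it at -1 and less.

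Of the hnRNP genes, 17 of 20 were lower in PB and 1 was higher, in ko and in wt cells alike, with medians of -0.52 and -0.53. The most abundant, Hnrnpa2b1, whose protein carries and splices RNA, had 489.9 and 446 FPKM in ko ActB, 366 and 357 in ko PrePB and 307 and 309.6 in ko PB. Its wt values were 533 and 529.5 in ActB, 416 and 382 in PrePB and 344 and 335 in PB. Values stepped down without overlap, and the log2 change from ActB to PB was -0.60 ± 0.08 in ko and -0.64 ± 0.08 in wt (limma SE, n = 2 each; adjusted p = 0.000103 and 5.84e-05). All 7 genes of the A/B and D types, which share a pair of RNA recognition motifs, were lower in both genotypes, with wt changes between -0.37 (Hnrnpa0) and -0.70 (Hnrnpdl). The ko changes ran to -1.15 for Hnrnpa1, which was at -0.53 in wt cells (adjusted p = 0.000293 and 0.0290).

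Hnrnpd, which encodes AUF1, a factor of mRNA decay, had 37.7 and 35.0 FPKM in ko ActB, 26.9 and 25.1 in ko PrePB and 20.7 and 23.2 in ko PB. In wt cells it had 44.0 and 43.5, 34.1 and 31.8, and 26.9 and 28.0 FPKM in the same order of populations. No library of one population overlapped the next, and the log2 change from ActB to PB was -0.70 ± 0.08 in ko and -0.65 ± 0.08 in wt cells (adjusted p = 3.44e-05 and 5.87e-05). Its close relative Hnrnpdl fell by 0.77 in ko and 0.70 in wt cells. Among the F/H type, which binds runs of G, Hnrnpf (75.9 and 81.8 FPKM in ko PB against 104 and 101 in ko ActB; 78.4 and 80.7 in wt PB against 109 and 111 in wt ActB) fell by 0.38 and 0.47 in ko and wt cells. Work in B cells has linked hnRNP F to less cleavage at the secretory polyadenylation site. Hnrnph1 and Hnrnph3 fell too, by 0.67 and 0.76 in ko and by 0.60 and 0.91 in wt cells. Hnrnph2, of the same type, had 42.3 and 42.7 FPKM in ko PB against 48.2 and 41.7 in ko ActB, and 51.3 and 49.8 in wt PB against 46.8 and 50.6 in wt ActB, and its libraries overlapped. With libraries scaled to equal totals Hnrnph2 was called lower in both genotypes, at -0.37 in ko and -0.35 in wt cells.

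The remaining single types also had lower values in PB. Hnrnpm, a factor that represses exons next to GU-rich sequence, changed by -0.60 in ko and -0.63 in wt cells (adjusted p = 4.63e-05 and 3.39e-05). Hnrnpc, whose protein binds runs of U, changed by -0.72 and -0.54, Hnrnpk, which binds runs of C, by -0.51 and -0.37, and Hnrnpr by -0.41 and -0.39. Of the U type, scaffold proteins of the nuclear matrix, Hnrnpu and Hnrnpul2 were lower in both genotypes, while Hnrnpul1 had log2 changes of 0.02 in ko and -0.02 in wt cells, with overlapping libraries. Under equal totals Hnrnpul1 was called lower in both genotypes, at -0.27 in ko and -0.43 in wt cells (adjusted p = 0.00801 and 0.000399), and under equal quantiles at -0.21 and -0.31 (adjusted p = 0.0388 and 0.00541).

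The L type split. Hnrnpll encodes the paralog of hnRNP L that promotes exon skipping in the CD45 transcript of lymphocytes and has been tied to antibody secretion in plasma cells. It had 0.939 and 1.40 FPKM in ko ActB, 6.65 and 7.53 in ko PrePB and 12.6 and 13.4 in ko PB. In wt cells it had 0.841 and 1.01 FPKM in ActB, 8.13 and 8.87 in PrePB and 14.2 and 14.4 in PB. Each population stood apart from the next in both genotypes, and the mean in PB was 11.1 times that in ActB in ko and 15.5 times in wt cells. The log2 change was 2.70 ± 0.13 in ko and 2.99 ± 0.13 in wt cells (SE, n = 2 each; adjusted p = 2.78e-08 and 1.35e-08), and both calls held under every other setting tried. Because its ActB values lie near the pseudocount of 1, the log2 scale understates this difference.

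Hnrnpl itself, an activator and repressor of exons through CA repeats, had 222 and 219 FPKM in ko ActB, 158 and 168 in ko PrePB and 163 and 178 in ko PB. Its wt values were 228 and 238, 180.0 and 179, and 186 and 186 FPKM. Levels dropped at the step to PrePB and stayed near that level in PB, with log2 changes from ActB to PB of -0.37 ± 0.08 in ko and -0.32 ± 0.08 in wt cells (adjusted p = 0.00148 and 0.00369). Per 100 FPKM of Hnrnpl there were 0.424 and 0.637 FPKM of Hnrnpll in ko ActB, 4.20 and 4.47 in ko PrePB and 7.73 and 7.54 in ko PB, and 0.368 and 0.425, 4.51 and 4.97, and 7.64 and 7.73 in the wt populations. Even in PB, then, Hnrnpll mRNA was far below that of Hnrnpl.

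**Figure D4:**
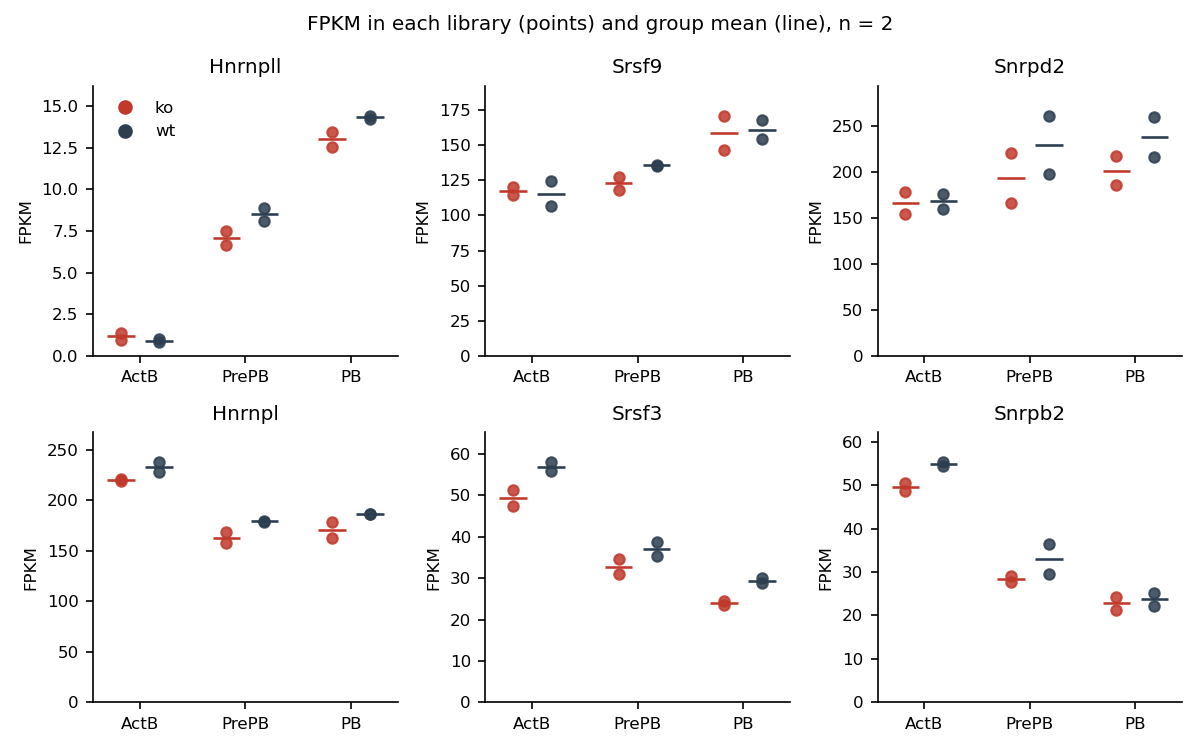
FPKM (y axes, from 0) of 3 genes with higher and 3 with lower values in wt PB than in wt ActB, in each library (points) with the group mean (line, n = 2), for ko (red, left) and wt (dark, right). Hnrnpll is at 12.6 to 14.4 FPKM in PB against 0.841 to 1.40 in ActB, and Srsf3 at 23.6 to 30.0 against 47.3 to 57.9.

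In the SR family 6 of 10 genes were lower and 1 was higher in ko PB, and 7 were lower and 1 higher in wt PB, with medians of -0.49 and -0.51. Srsf3, the smallest SR protein, which controls splicing, export and 3' end choice, showed the strongest fall, with 51.2 and 47.3 FPKM in ko ActB, 34.5 and 30.9 in ko PrePB and 24.4 and 23.6 in ko PB. In wt cells it had 55.8 and 57.9, 38.8 and 35.2, and 28.8 and 30.0 FPKM. Each step was lower without overlap, and the log2 change from ActB to PB was -1.01 ± 0.09 in ko and -0.93 ± 0.09 in wt cells (adjusted p = 2.07e-06 and 3.82e-06). Srsf7, an export adaptor like Srsf3, had 58.7 and 57.5 FPKM in ko PB against 80.7 and 81.2 in ko ActB, and 60.0 and 60.4 in wt PB against 96.6 and 91.9 in wt ActB.

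Srsf1, the founding member of the family, had 48.4 and 49.9 FPKM in ko PB against 74.6 and 73.9 in ko ActB, and 52.3 and 49.5 in wt PB against 84.6 and 77.2 in wt ActB. Its log2 change was -0.59 ± 0.08 in ko and -0.66 ± 0.08 in wt cells (adjusted p = 6.40e-05 and 2.64e-05). Srsf11 fell by 0.83 in ko and 0.78 in wt cells, Srsf2, the most abundant SR gene, by 0.50 and 0.56, and Srsf10, a repressor when dephosphorylated, by 0.50 and 0.46. Srsf4 was called lower in wt cells only (-0.22, adjusted p = 0.0169; ko -0.15, adjusted p = 0.0677), and the difference between the genotypes was not called. Srsf5 and Srsf6, of the same long type with paired recognition motifs, were not called, at 0.12 and -0.24 in ko and 0.17 and -0.24 in wt cells. Srsf6 was called lower in 4 other settings in ko and 5 in wt cells. Over all settings Srsf5 ranged from -0.18 to 0.33 in ko and from -0.24 to 0.20 in wt cells. It was called only in ko cells with a term for the low-value pattern.

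Srsf9 went the other way. This short SR protein has been described as a counterpart of Srsf1. It had 114 and 120.4 FPKM in ko ActB, 118 and 127 in ko PrePB and 146 and 171 in ko PB, and 107 and 124, 136 and 135, and 154 and 168 FPKM in the wt populations. PB values lay above those of the other populations in both genotypes, with log2 changes from ActB of 0.43 ± 0.10 in ko and 0.48 ± 0.10 in wt cells (adjusted p = 0.00353 and 0.00174). When libraries were scaled to equal totals, the all-gene median went to -0.27 in ko and -0.38 in wt cells, and Srsf9 stood at 0.13 and 0.07 and was not called (adjusted p = 0.124 and 0.408). As a share of all SR family FPKM, Srsf9 was 12.3% and 12.3% in ko ActB, 13.9% and 15.0% in ko PrePB and 19.1% and 21.8% in ko PB, and 10.3% and 12.7%, 15.2% and 15.9%, and 19.1% and 20.8% in the wt populations. Srsf3 made up 3.18% and 3.01% in ko PB against 5.50% and 4.84% in ko ActB, and 3.56% and 3.72% in wt PB against 5.38% and 5.91% in wt ActB.

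In the snRNP family 9 of 11 genes were lower in ko PB and none higher, and 8 were lower and 1 higher in wt PB, with medians of -0.56 and -0.44. Snrpb2, which encodes a protein of the U2 snRNP that binds its RNA stem loop, had the largest wt fall of all members. It had 48.6 and 50.6 FPKM in ko ActB, 27.8 and 29.1 in ko PrePB and 24.2 and 21.3 in ko PB, and 55.2 and 54.5, 36.5 and 29.6, and 25.3 and 22.1 FPKM in the wt populations. Levels dropped most at the step to PrePB, and over both steps by 54.1% in ko and 56.7% in wt cells (log2 changes of -1.09 ± 0.11 and -1.18 ± 0.11; adjusted p = 7.67e-06 and 4.06e-06). Its partner in U2, Snrpa1, had 44.3 and 51.1 FPKM in ko PB against 62.9 and 63.0 in ko ActB, and 63.8 and 66.6 in wt PB against 76.6 and 81.7 in wt ActB.

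Of the U1 proteins, the product of Snrpa can also hold back polyadenylation, that of its own mRNA and that of the secretory IgM site. Snrpa had 48.1 and 47.0 FPKM in ko PB against 69.6 and 64.4 in ko ActB, and 55.0 and 52.5 in wt PB against 73.1 and 73.3 in wt ActB. Its libraries did not overlap and its log2 changes were -0.49 ± 0.08 and -0.44 ± 0.08 (adjusted p = 0.000258 and 0.000514). Snrpc, the other U1 protein, was not called, at -0.29 in ko and -0.18 in wt cells. Under equal totals it was called lower in both genotypes, at -0.58 in ko and -0.57 in wt cells.

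Of the 7 Sm ring genes, 6 were lower in ko PB, and 5 were lower and 1 higher in wt PB. Snrpe had 28.5 and 33.2 FPKM in ko PB against 58.1 and 57.2 in ko ActB, and 41.2 and 39.5 in wt PB against 65.1 and 61.4 in wt ActB, without overlap (log2 changes of -0.88 and -0.64). Snrpd1, Snrpd3, Snrpf and Snrpb were lower in both genotypes, by 0.64, 0.56, 0.76 and 0.34 in ko and 0.61, 0.54, 0.49 and 0.32 in wt cells. Snrpg was lower in ko cells (-1.04, adjusted p = 0.000186) and was not called in wt cells (-0.17, adjusted p = 0.378), where under equal totals it was at -0.57 (adjusted p = 0.00665). Snrpd2 was the ring gene with higher values in PB. It had 154 and 179 FPKM in ko ActB, 166 and 221 in ko PrePB and 186 and 218 in ko PB, and 160.4 and 176, 261 and 198, and 260.1 and 216 FPKM in the wt populations. PB lay above ActB in both genotypes, by 0.27 ± 0.17 in ko (adjusted p = 0.182) and 0.49 ± 0.17 in wt cells (adjusted p = 0.0259), and the wt call was lost in 8 other settings. Under equal totals the values were -0.02 in ko and 0.08 in wt cells, so the ko direction turned. Its share of the summed Sm ring FPKM was 27.8% and 31.5% in ko PB against 18.5% and 20.5% in ko ActB, and 30.5% and 29.4% in wt PB against 17.5% and 19.1% in wt ActB.

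Much of the difference was present in PrePB, which carry the reporter but not CD138. Against ActB, 27 members were lower and 1 higher in ko PrePB (54.2% of all genes called, 27.0% lower and 27.1% higher), and 25 were lower and 1 higher in wt PrePB (53.4% called, 26.3% lower and 27.1% higher). Under equal totals 31 members were lower and 1 higher in ko and 33 lower and 1 higher in wt PrePB, beside 35.9% of all genes lower and 21.6% higher in ko and 42.3% lower and 19.0% higher in wt cells. The medians were -0.34 in ko and -0.32 in wt cells. The hnRNP genes gave 16 lower and 1 higher in each genotype, the snRNP genes 8 lower in ko and 5 in wt cells, and the SR genes 3 lower in ko and 4 in wt cells. Hnrnpll was the higher gene in both, by 1.91 ± 0.13 in ko and 2.30 ± 0.13 in wt cells (adjusted p = 5.97e-07 and 1.49e-07). Snrpb2 fell by 0.78 in ko and 0.72 in wt cells, Srsf3 by 0.58 and 0.61, Hnrnpdl by 0.56 and 0.61, Hnrnpa1 by 0.55 and 0.80 and Hnrnph3 by 0.44 and 0.70. The most abundant gene, Hnrnpa2b1, fell by 0.37 and 0.41, while Srsf2, at -0.24 and -0.28, was not called (adjusted p = 0.0959 and 0.0595) but was called lower in 5 other settings in each genotype. Hnrnpr, Snrpa1, Snrpb and Snrpf were called lower in ko cells alone and Hnrnpa3 and Srsf7 in wt cells alone, and the test of the difference called none of them. Without replicate 1 of ko ActB, 18 members were called in ko cells, and without replicate 1 in all wt groups 13 were called in wt cells.

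From PrePB to PB few members were called, but Hnrnpll, Srsf3 and Srsf7 moved on in the same direction in both genotypes. In ko cells 2 were higher and 5 lower (10.8% of all genes called, 6.57% higher and 4.24% lower), and in wt cells 1 was higher and 3 lower (8.73% called, 5.02% higher and 3.70% lower). Hnrnpll rose by 0.79 ± 0.13 in ko and 0.69 ± 0.13 in wt cells (adjusted p = 0.00396 and 0.00936). Srsf3 fell by 0.43 and 0.32 and Srsf7 by 0.37 and 0.37 (adjusted p = 0.0108 and 0.0427, and 0.00851 and 0.00925). In ko cells Srsf9 rose by 0.36 and Snrpg, Snrpe and Hnrnph1 fell by 0.87, 0.45 and 0.33, and in wt cells Snrpb2 fell by 0.46. Under equal totals 1 member was higher and 19 lower in ko cells (3.51% and 9.26% of all genes), and 1 was higher and 17 lower in wt cells (2.85% and 10.3%). Quantile scaling gave 1 higher and 6 lower in wt cells. No wt call was left without replicate 1 of wt PrePB or without either wt PB library. In ko cells the count was 3 without replicate 1 of ko PrePB or replicate 2 of ko PB and 4 without replicate 2 of ko PrePB, and Hnrnpll and Snrpg were called in each of these.

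Means stepped down through all 3 populations (ActB, then PrePB, then PB) for 33 members in ko and 32 in wt cells, with no overlap between neighbouring populations for 24 and 23 of them. Of all genes tested, 31.3% in ko and 32.8% in wt cells stepped down, 15.0% and 15.9% without overlap. Means stepped up for 3 members in ko and 5 in wt cells, without overlap for 1 and 3, against 31.4% and 32.7% of all genes, 17.7% and 18.3% without overlap.

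Loss of Mzb1 was set against wild type within each population, as the design of the series allows. No member was called in ActB or PrePB, where 0.0542% and 0.117% of all genes were called, and 2 were lower in ko PB (0.407% of all genes called, 0.145% lower). At an unadjusted p below 0.05 there were 8 of 41 members in ActB (19.5%, against 8.07% of all genes), 11 in PrePB (26.8%, against 15.0%) and 16 in PB (39.0%, against 15.96%). These counts depended on the scaling. Under equal totals they were 7 in ActB, 4 in PrePB and 10 in PB, beside 922, 2023 and 2203 of the 11069 genes tested. In direction, 35, 36 and 37 of the 41 members had a lower estimate in ko than in wt ActB, PrePB and PB, against 48.6%, 46.7% and 44.7% of all genes tested. The sizes were small: the medians were -0.13, -0.14 and -0.16, and under equal totals -0.14, -0.05 and -0.06, where the median of all genes moved to 0.09 in PrePB and 0.12 in PB. Without wt replicate 1, which left male libraries alone, the medians of the members were -0.11 in ActB, -0.13 in PrePB and -0.12 in PB. The ko libraries lay below both wt libraries without overlap for 25, 24 and 25 members, against 17.7%, 21.4% and 21.2% of all genes.

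Snrpg, a member of the Sm ring, had 14.1 and 15.5 FPKM in ko PB against 36.7 and 35.2 in wt PB. In PrePB it had 26.7 and 29.1 in ko and 47.3 and 35.4 in wt cells, and in ActB 37.0 and 26.8 in ko and 38.3 and 42.7 in wt cells. The ko values were below the wt values in each population, most in PB, where the log2 change was -1.22 ± 0.16 (adjusted p = 0.00881), and it was not called in PrePB (-0.54, adjusted p = 0.176) or ActB (-0.35, adjusted p = 0.613). Hnrnpa1, the classical antagonist of SR proteins in splice site choice, had 9.36 and 6.86 FPKM in ko PB against 18.7 and 18.1 in wt PB. In PrePB it had 13.9 and 11.6 in ko and 13.98 and 16.28 in wt cells, and in ActB 23.5 and 15.4 in ko and 28.1 and 25.9 in wt cells. In ActB and PrePB the ko library of pattern B was the lower of the 2, and both ko PB libraries are of pattern B. The change in PB was -1.11 ± 0.19 (adjusted p = 0.0385), with -0.23 in PrePB (adjusted p = 0.586) and -0.48 in ActB (adjusted p = 0.570). The mouse genome holds many processed copies of Hnrnpa1, and how fragments shared between copies were counted is not given in the sources used here, so its values are uncertain.

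The call of Hnrnpa1 was lost in 10 of 15 other settings and that of Snrpg in 6 of 15. Under quantile normalization and under equal totals Snrpg was still called and Hnrnpa1 was not. With a term for the pattern, Snrpg in PB was at -1.06 (adjusted p = 0.184) and Hnrnpa1 at -0.70 (adjusted p = 0.314), and no member was called. None was called without replicate 1 or replicate 2 of wt PB, or without replicate 1 of ko PB. The part of the pattern in these values was not tested. A test of whether the ko effect differed between populations called no member (0.0452% of all genes called for PB and ActB, 0.0361% for PrePB and ActB, 0.00% for PB and PrePB), and at an unadjusted p below 0.05 there were 2, 0 and 2 of 41 members, against 4.15%, 3.57% and 2.46% of all genes. These shares lie near the background. For Snrpg the change from ActB to PB differed between ko and wt by -0.87 ± 0.22 (adjusted p = 0.813).

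**Figure D5:**
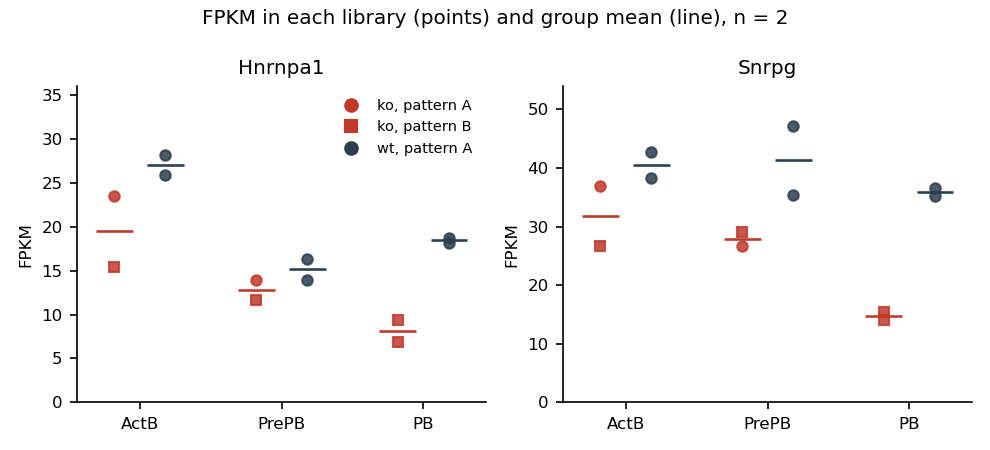
FPKM (y axes, from 0) of Hnrnpa1 and Snrpg in each library (points) with the group mean (line, n = 2), for ko (red, left) and wt (dark, right) in the 3 populations. Circles are libraries of pattern A and squares of pattern B. The ko PB points of both genes lie below all wt points, and both are squares.

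Snrpa1 had the lowest p of all members in ActB and PrePB. It had 62.9 and 63.0 FPKM in ko ActB against 76.6 and 81.7 in wt ActB, 52.4 and 51.5 in ko PrePB against 74.1 and 71.0 in wt PrePB, and 44.3 and 51.1 in ko PB against 63.8 and 66.6 in wt PB. No ko library reached a wt library of its population, the ko libraries of pattern A in ActB and PrePB included. The log2 changes were -0.33, -0.47 and -0.45, each ± 0.08, and none was called (adjusted p = 0.399, 0.0724 and 0.0540). In PB it was called in 5 other settings. Hnrnpdl (-0.35 in ActB, -0.30 in PrePB and -0.42 in PB), Hnrnpd (-0.26, -0.33 and -0.31) and, in ActB, Srsf7 (-0.22) also had low p and were not called. The most abundant genes of each family, Hnrnpa2b1, Srsf2 and Snrpb, were not called in ko against wt of any population, and Hnrnpll was at 0.16 in ActB, -0.23 in PrePB and -0.13 in PB and was not called either.

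Other parts of the splicing machinery moved in the same direction with smaller medians. The counts below stand beside 30.9% lower and 31.2% higher of all genes tested in ko PB against ActB. In wt cells these shares were 31.0% and 31.0%. Of 33 hnRNP-like genes under other names, 22 were lower and 4 higher in ko PB than in ko ActB, and 21 were lower and 3 higher in wt PB, with medians of -0.40 and -0.38. Celf2 (-1.38 in ko and -1.72 in wt cells) and Fubp1 (-1.02 and -0.96) fell, and Mbnl2, of the muscleblind family, rose by 1.92 and 1.63. Of 28 SR-related genes and SR kinases, 15 were lower and 3 higher in each genotype. Srpk1, a cytoplasmic kinase of SR proteins, fell by 0.43 in ko and 0.59 in wt cells, and Clk4, a nuclear one, rose by 0.73 and 0.80.

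Of 46 further proteins of U1, U2, U4/U6 and U5, 27 were lower and 4 higher in ko PB, and 26 were lower and 3 higher in wt PB. The U2 subunit gene Sf3a3 was at -0.63 and -0.71 and the U5 GTPase gene Eftud2 at -0.76 and -0.76. In the Prp19 complex, helicases and step factors, 14 of 31 were lower and 1 higher in ko PB, and 13 lower and 1 higher in wt PB, with the smallest medians of these lists (-0.21 and -0.17). The lower shares were 45.2% in ko and 41.9% in wt cells, against 30.9% and 31.0% of all genes tested. Of 16 genes for Sm ring assembly, 11 were lower and 1 higher in ko PB and 10 lower and 1 higher in wt PB. Prmt5, the methyltransferase that prepares Sm proteins for the ring, had 23.0 FPKM in ko PB against 50.9 in ko ActB, and 25.0 in wt PB against 61.9 in wt ActB (means; log2 changes of -1.12 and -1.28), while Coprs, which encodes a partner of Prmt5, rose by 1.59 and 1.73.

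Of 24 polyadenylation genes, listed with factors of the immunoglobulin mRNA switch, 14 were lower and 6 higher in ko PB and 13 lower and 6 higher in wt PB. The elongation factor gene Ell2, needed for secretory immunoglobulin mRNA, was at 3.53 and 3.30 and its partner Eaf2 at 4.22 and 4.23, while the cleavage nuclease gene Cpsf3 was at -0.60 and -0.79. In the growth and proliferation list of 12, 5 were lower and 3 higher in ko PB and 4 lower and 3 higher in wt PB (medians -0.24 and -0.14). The lower shares of 41.7% in ko and 33.3% in wt cells lay near those of all genes tested (30.9% and 31.0%). None of these 7 lists held a gene called in ko against wt PB, where only 0.407% of all genes tested were called.

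Some genes listed as markers of other cells moved between the populations as well, and their sums do not tell which cells made them. The 5 macrophage and granulocyte markers summed to 2.25 to 4.09 FPKM in ko PB against 12.9 to 30.0 in ko ActB, and to 0.136 to 0.353 in wt PB against 7.89 to 14.7 in wt ActB. In ActB nearly all of this was Adgre1, while Elane was at 0 in all libraries and 3 of the 5 never reached 1 FPKM. The 3 stromal markers, nearly all Pecam1 with Col3a1 at 0, summed to 12.7 to 13.9 FPKM in ko PB against 57.3 to 69.8 in ko ActB, and to 8.12 to 11.0 in wt PB against 41.5 to 57.0 in wt ActB. The 3 dendritic markers summed to 8.29 to 10.0 FPKM in ko PB against 18.3 to 23.8 in ko ActB, and to 7.34 to 8.69 in wt PB against 19.9 to 23.1 in wt ActB. The 6 T cell markers, mostly Lck and Cd3g, summed to between 7.23 and 15.6 FPKM, and 3 of them never reached 1 FPKM. NK markers summed to at most 1.81 FPKM with Ncr1 at 0, and erythroid markers to at most 0.167 with the globin genes Hba-a1 and Hbb-b1 at 0. Their part in the splicing protein values was not tested. The label markers followed the sort: Sdc1, which encodes CD138, had 66.5 and 98.4 FPKM in ko PB and 76.3 and 88.2 in wt PB, against at most 5.24 FPKM in the other libraries.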

How the data were processed

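RNA was measured in 12 libraries of 6 groups, 2 libraries each. The authors deposited FPKM values, 1 file per library and 24325 symbols. The submitters' processing notes list the mm9 build, Cuffnorm 2.2.1, Cuffdiff and Cufflinks 2.2.1, the aligner TopHat2 (2.0.14) and bcl2fastq in versions 2.17.1.14 and 0.3.1. Annotation, library scaling and filters are not given in the sources used here. With no counts, absolute depth is unknown and no counting interval was computed.

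The 11069 genes that reached 1 FPKM in 2 or more libraries were fitted as log2(FPKM + 1) in limma 3.58.1 (limma-trend, R 4.3.3). The model had 1 coefficient for each of 6 groups, which left 6 residual degrees of freedom to which limma added 4.49. A gene was called where its two-sided p, adjusted by the Benjamini-Hochberg method over all tested genes of the comparison, was below 0.05. SE is that of the limma log2 change. The fit was tested on simulated data with known changes. The members, the lists of other genes and the tests were chosen with earlier results of these data known. By rule, any member could be named in PB against ActB. Elsewhere called members (at most 6 each way by log2 change), the 3 members of lowest p where under 3 passed, and the most abundant member of each family were named, and up to 4 called genes of lowest p per list. Members named outside that rule, and those whose promoters are printed, were chosen after their values were seen.

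The fit was repeated without a filter, with a minimum of 5 FPKM, with 0.1 as the pseudocount, after quantile normalization, with equal totals (small RNA genes left out) or equal medians, on the compared groups alone, with a replicate block or a term for the low-value pattern, without wt replicate 1 everywhere or each library in turn, and with a log2 change of at least 0.5 required. The pattern A libraries alone and a crossed block were added after seeing the data. The pattern was read from genes below 0.5 FPKM whose ratio between libraries repeats within a log2 tolerance of 0.002, and such a shared ratio was found in 9.07% to 20.5% of these genes between libraries within A, 7.70% to 16.6% within B and 2.13% to 4.89% across. Promoter windows came from RefSeq (GRCm38.p6) by symbol, since the deposited files hold no coordinates, and 7 motifs were searched. Python 3.11.15 and matplotlib 3.10.9 drew the figures.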

Additional observations from a re-analysis of the deposited data

Results flagged for a closer look

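Hnrnpa1 moved in opposite directions between PrePB and PB in the 2 genotypes. Both ko PB libraries (9.36 and 6.86 FPKM) were below both ko PrePB libraries (13.9 and 11.6 FPKM), a log2 change of -0.60, while both wt PB libraries (18.7 and 18.1 FPKM) were above both wt PrePB libraries (13.98 and 16.28 FPKM), a log2 change of 0.27. Neither change was called (limma adjusted p = 0.0639 in ko and 0.408 in wt cells). The difference between them was tested: it was -0.88 ± 0.26 (SE) with an unadjusted limma p of 0.00704 and an adjusted p of 1.00, and was not called. Replicate 1 of ko PrePB is of pattern A and the other ko libraries in this comparison are of pattern B, and the part of the pattern was not tested.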

How the results depend on the processing

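Of the values of single members under other settings, 2288 stayed on their side of the threshold, 43 passed it and 155 no longer did. A further 3 passed it with their direction reversed. Of these, Hnrnpul1 in ko PB against ActB was -0.21 with quantile scaling and -0.27 with equal totals, and Hnrnph2 in wt PB against ActB was -0.35 with equal totals. Some uncalled values among the 2288 changed sign, as Snrpd2 did in ko PB against ActB under equal totals (-0.02). Counts of members called moved by over 1.5 times as follows, and the cause was not tested except where fewer samples or a stricter threshold made the setting. For ko against wt PB (2) the count was 0 with no filter, with the pattern term and without wt replicate 1 everywhere, and 1 with quantile scaling, equal totals and the compared groups alone. For ko PB against PrePB (7) it was 20 with equal totals, 2 with the compared groups alone and 2 at a log2 change of at least 0.5. For wt PB against PrePB (4) it was 7 with quantile scaling, 18 with equal totals, 2 with the compared groups alone, 0 without wt replicate 1 everywhere, 1 at a log2 change of at least 0.5 and 2 in pattern A libraries alone. The threshold of 0.5 left 9 in ko PrePB against ActB, 8 in wt PrePB against ActB and 22 in wt PB against ActB, and leaving out wt replicate 1 everywhere left 13 in wt PrePB against ActB. Leaving out each library in turn gave 33 to 34 (ko) and 29 to 32 (wt) in PB against ActB, 18 to 26 and 19 to 24 in PrePB against ActB, and 3 to 5 and 0 to 3 in PB against PrePB. It gave 0 to 2 in ko against wt PB and 0 to 0 in ActB, PrePB and the differences between populations. Where 1 library remained in a group, it was assumed to vary like the other groups. Replicate numbers did not pair ko with wt libraries (replicate deviations correlated at -0.11 in ActB, -0.08 in PrePB and -0.05 in PB). Within a genotype the numbers may mark shared cultures, which the labels do not say: the correlations between populations were 0.291, 0.108 and 0.0956 in ko and 0.046, 0.239 and 0.316 in wt cells (ActB with PrePB, ActB with PB, PrePB with PB). The replicate block gave 11 members in ko PB against PrePB and moved no other count of members by over 1.5 times (32 against 26 in wt PrePB against ActB). With it Srsf2 in PrePB against ActB and Srsf6 in PB against ActB were called lower in both genotypes, and Snrpa1 was called lower in ko against wt PB. A crossed block in ActB called 0 members in ko against wt. With 2 libraries a group and no counts, small changes may have gone uncalled.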
